A study of Homo sapiens with 4 samples.

Results

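The 10 imprinted genes H19, MEG3, DLK1, PEG3, PEG10, MEST, SNRPN, CDKN1C, PLAGL1 and GRB10 were read out of 26364 genes in 4 RNA sequencing libraries. They were chosen by name, as established imprinted genes, and all 10 had a row in the deposited count table. The cells were Ishikawa, a human endometrioid adenocarcinoma line, in which ESR1, the gene of estrogen receptor alpha, carried the Y537S mutation. All 4 libraries came from mutant cells in hormone-deprived medium, from 2 clones per the labels, each kept for 8 h with either vehicle (0.1% DMSO) or estradiol (E2) at 10 nM. The columns carried the tags A4 and B212, taken here as the names of the clones, and which tag is which numbered clone of the labels is not known. Each clone had 1 DMSO and 1 E2 library, so no clone had a replicate of a treatment, and the p-values measure only the spread among these 4 libraries.

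An imprinted gene is usually transcribed from the copy of only one parent. The choice is held by DNA methylation that is set in the egg or the sperm at a control region and then copied at every cell division. Genes expressed from the father's copy often favour growth and those from the mother's copy often restrain it, and many are active in the placenta and the uterus. A count of reads adds both copies, and DNA methylation was not measured, so neither the parental origin of a transcript nor the state of a control region can be read from these data.

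For 6 of the 10 genes, the RefSeq table of promoter windows (build GRCh38.p14) held an entry: H19, MEG3, MEST, SNRPN, PLAGL1 and GRB10. Each window covers 250 bases before and 50 bases after an annotated start, and the window with the most CpG dinucleotides was taken for each gene. The hexamer TGCCGC, which the imprint-protecting zinc finger protein ZFP57 recognises when its CpG is methylated, was searched on both strands with overlaps allowed. It was found in the windows of 4 genes, and 17.9% of the 27305 gene symbols with a window had it in their own window with the most CpG. Those 4 windows are shown because they set 2 genes with 0 counts in every library (MEG3 and SNRPN) beside 2 with many (MEST and PLAGL1). The capitals mark the hexamer or its reverse complement.
MEG3: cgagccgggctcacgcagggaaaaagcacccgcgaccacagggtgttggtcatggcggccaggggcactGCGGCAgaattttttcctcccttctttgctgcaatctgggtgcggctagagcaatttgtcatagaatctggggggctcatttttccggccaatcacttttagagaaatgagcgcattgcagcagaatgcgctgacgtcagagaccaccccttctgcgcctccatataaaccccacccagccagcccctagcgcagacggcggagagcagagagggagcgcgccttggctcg
SNRPN: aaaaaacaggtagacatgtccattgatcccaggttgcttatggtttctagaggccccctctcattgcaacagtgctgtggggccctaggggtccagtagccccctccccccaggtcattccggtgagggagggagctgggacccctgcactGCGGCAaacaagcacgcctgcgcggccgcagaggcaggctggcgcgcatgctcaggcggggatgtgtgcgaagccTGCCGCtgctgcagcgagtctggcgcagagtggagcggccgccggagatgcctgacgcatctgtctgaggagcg
MEST: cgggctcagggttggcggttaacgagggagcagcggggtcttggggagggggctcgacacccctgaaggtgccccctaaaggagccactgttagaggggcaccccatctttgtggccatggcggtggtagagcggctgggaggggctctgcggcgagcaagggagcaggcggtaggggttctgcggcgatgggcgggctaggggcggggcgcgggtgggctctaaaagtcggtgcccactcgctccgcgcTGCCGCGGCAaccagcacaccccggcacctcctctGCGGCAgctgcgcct
PLAGL1: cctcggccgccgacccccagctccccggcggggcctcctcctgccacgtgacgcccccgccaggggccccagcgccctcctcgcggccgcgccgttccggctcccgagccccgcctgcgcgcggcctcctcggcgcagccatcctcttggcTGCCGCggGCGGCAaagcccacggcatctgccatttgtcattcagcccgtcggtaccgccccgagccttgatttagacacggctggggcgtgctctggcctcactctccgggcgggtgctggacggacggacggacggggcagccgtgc
The windows lay at chr14:100825858-100826157 on the plus strand (MEG3), chr15:24954737-24955036 on the plus strand (SNRPN), chr7:130491835-130492134 on the plus strand (MEST) and chr6:144008210-144008509 on the minus strand (PLAGL1). They held 19 (MEG3), 18 (SNRPN), 25 (MEST) and 39 (PLAGL1) CpG dinucleotides, against a median of 16 over all symbols. The hexamer occurred 1 time in MEG3, 2 times in SNRPN, 3 times in MEST, where a pair of matches overlapped, and 2 times in PLAGL1. It was therefore present in windows of genes with and without counted reads, although the 0 of SNRPN is uncertain, as described with its counts. The windows of H19 and GRB10 with the most CpG held 6 and 49 CpG dinucleotides and 0 matches each. H19 had 1 window. GRB10 had 5, of which another, with 44 CpG dinucleotides, held 1 match and the rest held 0. A match of letters is not a bound site, and which start the cells used cannot be told from counts per gene.

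The libraries held 71575816 to 85222856 counts, and no pair of them held counts alike within sampling noise (chi-square per degree of freedom 25.9 to 207.6). All 8 epithelial markers looked for (EPCAM, CDH1, KRT8, KRT18, KRT19, PAX8, SOX17 and EMX2) passed the filter on low counts, and their summed level was 2347 to 2493 CPM (counts scaled to library size) in A4 and 2953 to 3216 CPM in B212. Of 6 fibroblast markers 3 passed, with sums of 94.2 to 130.4 CPM in A4 and 35.1 to 43.0 CPM in B212. Nearly all of this was COL1A1, and DCN had at most 1 count in a library. Of the immune markers 2 of 5 passed and of the endothelial markers 2 of 4, with sums of at most 1.19 and 5.11 CPM and with CD3E and PECAM1 at 0. The epithelial and fibroblast sums thus moved with the clone, as did some of the genes below. The part of these sums in the differences of those genes was not tested.

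By their counts the 10 genes fell into 5 that were transcribed and 5 with at most 3 counts in any library. PEG10, MEST, CDKN1C, PLAGL1 and GRB10 passed the filter on low counts, as did 59.2% of the table. H19, MEG3, DLK1, PEG3 and SNRPN did not, and 3 of them (MEG3, DLK1 and SNRPN) had 0 counts in all 4 libraries. Of all genes measured 22.4% were at 0 in all 4 libraries. The 0 of SNRPN is uncertain, because it shares exons with other genes.

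**Figure D1:**
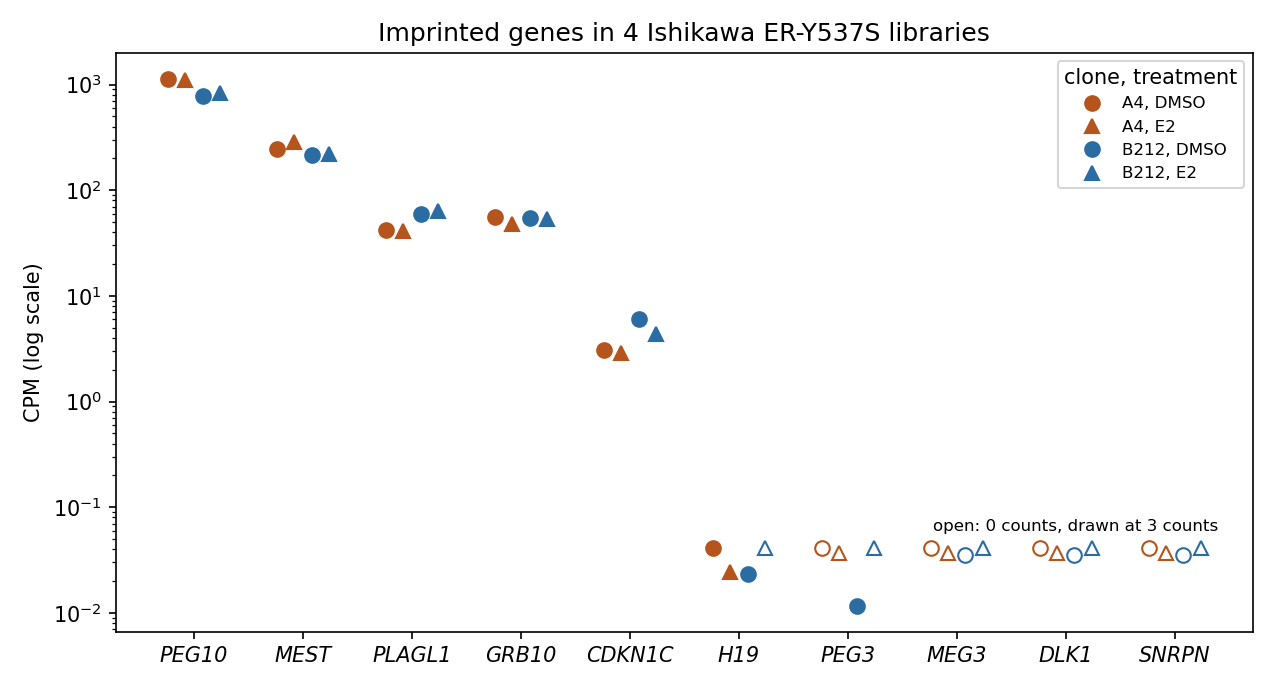
Level of each of the 10 imprinted genes in CPM, on a log axis, in the 4 libraries. Orange is clone A4 and blue is B212, circles are DMSO and triangles E2, and an open symbol is a library with 0 counts, drawn at the level of 3 counts. PEG10 lies between 778 and 1122 CPM, CDKN1C between 2.88 and 6.05 CPM, and the genes from H19 to SNRPN lie at or below the level of 3 counts.

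Of the genes with at most 3 counts, H19 is a maternally expressed long noncoding RNA that shares its control region with IGF2. It had 3 (DMSO) and 2 (E2) counts in A4 and 2 and 0 counts in B212. These levels, at most 0.0410 CPM, are no more than what a count of 0 still allows, which is 0.0351 to 0.0410 CPM for 3 counts per library. Its neighbour IGF2, a paternally expressed growth factor, had 4 and 7 counts in A4 and 2 and 4 counts in B212, and INS had 0 in every library. A difference between the clones at this locus was not detectable at this depth.

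The 14q32 locus was close to empty. MEG3, a maternally expressed long noncoding RNA, and DLK1, a paternally expressed membrane protein of the Notch ligand family, had 0 counts in each of the 4 libraries. Of the other genes looked for there, MEG8, MEG9 and RTL1 were also at 0. DIO3, an enzyme that inactivates thyroid hormone, had 1 count in the E2 library of A4 and 2 counts in the DMSO library of B212. Thus 5 of the 6 genes of this locus had no read in any library.

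PEG3, a paternally expressed zinc finger protein, had 1 count in the DMSO library of B212 and 0 in the other 3. Its neighbours ZIM2 and MIMT1 were at 0 throughout. In the GENCODE 29 annotation 12.9% of the exonic bases of PEG3 are shared with ZIM2 on the same strand.

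SNRPN, which encodes a core protein of the spliceosome and is paternally expressed from 15q11, had 0 counts in all 4 libraries. This 0 is uncertain. In GENCODE 29, 33.6% of its exonic bases are also exons of other genes on the same strand, SNURF foremost, and 69.3% of the exonic bases of SNURF are shared in the same way. SNURF had 0 counts in A4 and 3 (DMSO) and 1 (E2) counts in B212. How reads that fall on shared exons were counted is not given in the sources used here.

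The rest of the 15q11 locus was mixed. NDN, MAGEL2 and PWRN1, all paternally expressed, were at 0 in every library, and NPAP1 and ATP10A had at most 1 count. In contrast MKRN3, a paternally expressed RING finger protein, had 3.25 (DMSO) and 2.49 (E2) CPM in A4 and 3.76 and 4.49 CPM in B212. The noncoding transcript IPW, also paternally expressed, had 28.7 and 22.5 CPM in A4 and 26.0 and 24.4 CPM in B212. UBE3A, a ubiquitin ligase that only neurons imprint, had 215.4 to 239.0 CPM over the 4 libraries. Of these 3, only MKRN3 differed between the clones by edgeR's quasi-likelihood test, higher in B212 by 0.53 ± 0.16 (log2, SE; Benjamini-Hochberg adjusted p = 0.00878). UBE3A passed with library size only, at 0.18 (edgeR adjusted p = 0.0351). DESeq2 gave MKRN3 an adjusted p of 0.101, the fit without the treatment term gave 0.0771, and its value was 0.21 without the E2 library of either clone and 0.85 without the DMSO library of either clone.

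Among the transcribed genes, levels were compared per length of the longest GENCODE 29 transcript, coding ones preferred. PEG10 had 117.5 to 169.5 CPM per kb, above 97.0% to 98.0% of the tested genes of its library. MEST followed with 85.2 to 114.1 CPM per kb, at the 95.4% to 96.1% mark. GRB10 had 9.50 to 11.1, PLAGL1 6.48 to 10.2 and CDKN1C 1.49 to 3.12 CPM per kb. The ranges of GRB10 and PLAGL1 overlapped, and those of the other neighbours in this order did not.

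The first comparison asked whether the clones differed at these genes. Of the 5 tested genes, 4 differed between B212 and A4 by edgeR's quasi-likelihood test with treatment as a covariate, at a Benjamini-Hochberg adjusted p under 0.05. PLAGL1 and CDKN1C were higher in B212 and PEG10 and MEST lower, while GRB10 did not pass. Among all 15599 tested genes 51.0% were called, 25.2% higher and 25.8% lower in B212, and with library size as the only scaling the 7950 calls of 3927 higher and 4023 lower became 4761 higher and 3176 lower. A difference between the clones was thus no rare property of a gene, and the count of 4 of 5 is read against that background. The median absolute log2 fold change was 0.48 over the 5 genes and 0.28 over all tested genes, and none of the 4 reached an absolute log2 fold change of 1.

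PEG10, a paternally expressed gene derived from a retrotransposon and needed for the placenta, had 1122 (DMSO) and 1110 (E2) CPM in A4. In B212 it had 778 and 824 CPM. Both B212 libraries lay below both A4 libraries, by a log2 fold change of -0.48 ± 0.074 (SE), a level 1.39-fold higher in A4, with an edgeR adjusted p of 2.05e-05.

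MEST, a paternally expressed protein of the hydrolase fold family known from the mesoderm, had 247.4 (DMSO) and 285.8 (E2) CPM in A4 and 213.4 and 220.9 CPM in B212. The clones did not overlap, and B212 differed from A4 by -0.29 ± 0.072 (log2, SE; edgeR adjusted p = 0.00198). Without the treatment term the adjusted p was 0.0722. In GENCODE 29, 27.4% of its exonic bases lie opposite exons of other genes, among them MESTIT1 and COPG2, and whether the counting used strand is not given in the sources used here.

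PLAGL1, a paternally expressed zinc finger transcription factor that acts on other imprinted genes, had 42.2 (DMSO) and 40.8 (E2) CPM in A4. Its level was 60.1 and 63.9 CPM in B212. Both B212 libraries were above both A4 libraries, by 0.58 ± 0.076 (log2, SE), a 1.49-fold difference with an edgeR adjusted p of 2.87e-06.

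CDKN1C, a maternally expressed inhibitor of cyclin-dependent kinases, was the least abundant of the 5. It had 3.06 (DMSO) and 2.88 (E2) CPM in A4, from 224 and 236 counts, and 6.05 and 4.37 CPM in B212, from 516 and 320 counts. The B212 level was 1.74-fold higher, by 0.80 ± 0.14 (log2, SE; edgeR adjusted p = 9.10e-05). The difference was 0.98 in DMSO and 0.60 in E2 on the log2 scale, each from 1 library per clone.

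GRB10, an adaptor that dampens signals from the insulin receptor, is imprinted in an isoform-dependent way. It had 55.7 (DMSO) and 47.8 (E2) CPM in A4 and 54.1 and 53.9 CPM in B212, and the clones overlapped. Its log2 fold change was 0.065 ± 0.078 (SE; edgeR adjusted p = 0.511), with a 95% interval of -0.097 to 0.23.

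Of the 5 genes, 4 thus had clones that did not overlap in CPM, as did 67.5% of all tested genes.

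**Figure D2:**
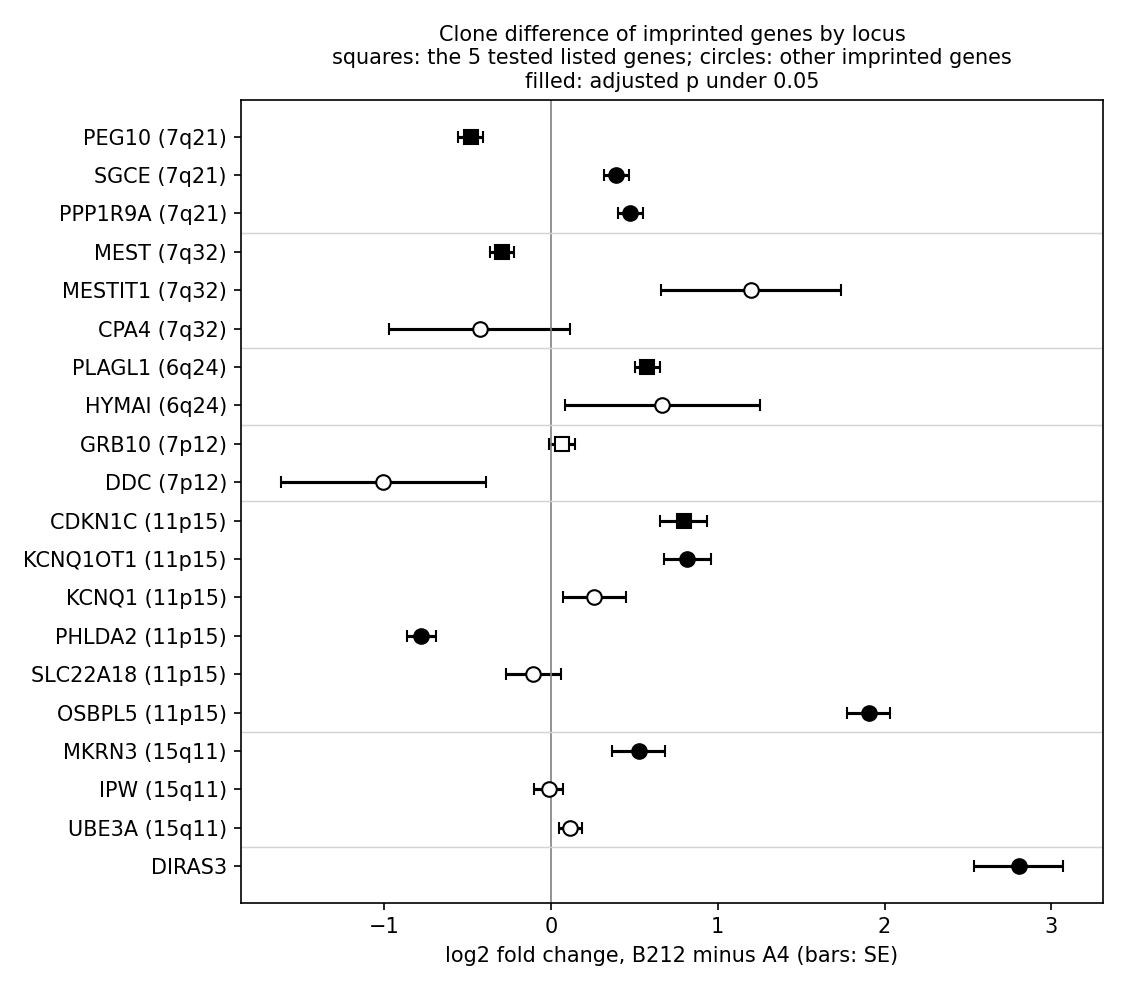
Log2 fold change of B212 against A4 with its standard error for the 5 tested listed genes (squares) and other imprinted genes (circles), grouped by locus; filled symbols have an edgeR adjusted p under 0.05. PEG10 lies at -0.48 while SGCE and PPP1R9A lie at 0.39 and 0.48, and PHLDA2 lies at -0.78 while CDKN1C, KCNQ1OT1 and OSBPL5 lie between 0.80 and 1.90. DDC passed the filter on low counts only through its A4 libraries, and its value is a description.

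The same comparison was made for 50 other imprinted genes, of which 47 had a row and 29 were tested. Of these 29, 16 were called by edgeR, 11 higher and 5 lower in B212, beside the 51.0% of all genes given above. Their median log2 fold change was 0.19, against 0.065 for the 5 tested listed genes and 0.0042 for all tested genes. With the 5 listed genes added and the genes sorted by the parental copy they are usually expressed from, 12 of 17 paternal genes were called (8 higher, 4 lower), 6 of 12 maternal genes (4 higher, 2 lower) and 2 of 5 isoform-dependent genes (1 higher, 1 lower). Of the 4 lower paternal genes, MCTS2P shares 100% of its exonic bases in GENCODE 29 with HM13 on the same strand. It is also among the 16 genes called. How reads on such exons were counted is not given in the sources used here. Both parental classes held genes that differed in either direction. Such a mix was also present among all tested genes, of which 25.2% were called up and 25.8% down. The classes name the usual parental copy, and the copy used in these cells was not measured. For the 29 other imprinted genes the balance of directions moved with the scaling. When library size alone was used, edgeR called 17 of them, 14 up and 3 down.

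At 7q21 the genes around PEG10 did not follow it. SGCE, a paternally expressed sarcoglycan whose start lies next to that of PEG10, had 35.5 (DMSO) and 41.1 (E2) CPM in A4 and 48.5 and 52.0 CPM in B212. It was higher in B212 by 0.39 ± 0.077 (log2, SE; edgeR adjusted p = 2.64e-04). PPP1R9A, a neuronal scaffold protein maternally expressed in some tissues, had 37.0 and 36.2 CPM in A4 and 51.1 and 50.7 CPM in B212, higher by 0.48 ± 0.076 (edgeR adjusted p = 3.02e-05). PEG10, lower in B212, therefore differed in direction from both neighbours.

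Ratios of raw counts within a library do not depend on the scaling between libraries. For each read of SGCE there were 31.6 (DMSO) and 27.0 (E2) reads of PEG10 in A4, and about 16 in both B212 libraries. The ratio of PEG10 to PPP1R9A was 30.4 and 30.7 in A4 and 15.2 and 16.2 in B212. The ratio of SGCE to PPP1R9A was 0.96 and 1.14 in A4 and 0.95 and 1.02 in B212, so that these neighbours kept close proportions in both clones while PEG10 did not. These pairs were chosen after the values were seen, and they are given as a description with no test.

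**Figure D3:**
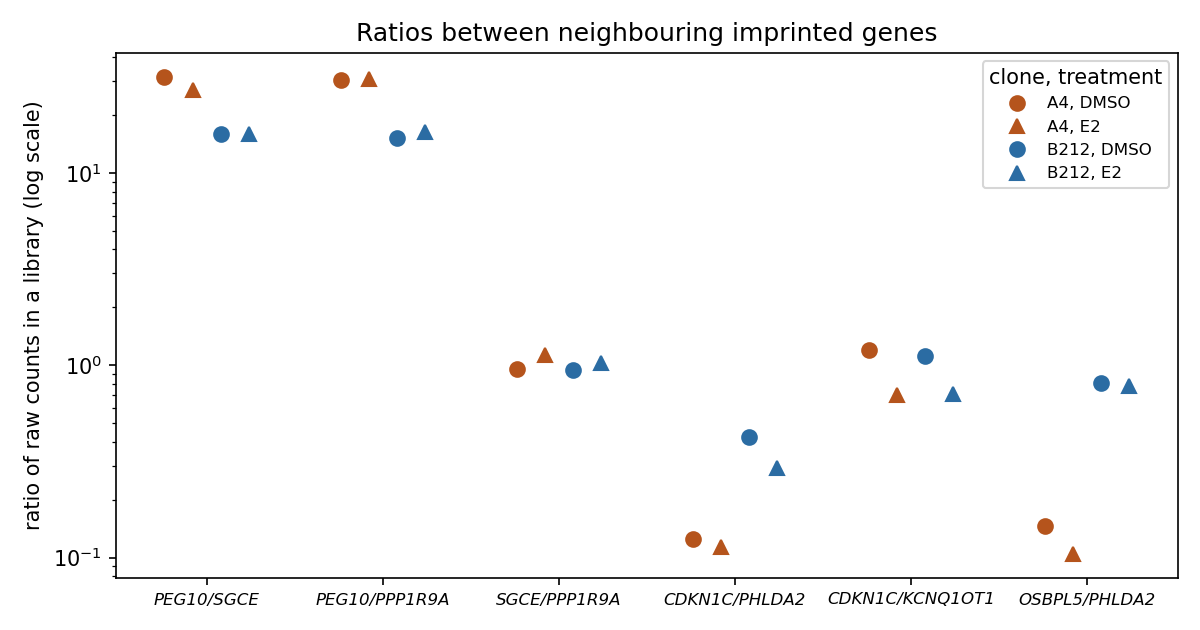
Ratio of raw counts between neighbouring imprinted genes within each library, on a log axis, with orange for A4, blue for B212, circles for DMSO and triangles for E2. PEG10 over SGCE is 27.0 to 31.6 in A4 and about 16 in B212, and CDKN1C over PHLDA2 is 0.11 to 0.12 in A4 and 0.29 to 0.43 in B212.

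At 11p15 the genes around CDKN1C also went both ways. All 6 genes looked for in this domain were tested, and 4 differed between the clones, beside 51.0% of all tested genes. KCNQ1OT1, a paternally expressed antisense RNA that silences the domain in cis, had 2.55 (DMSO) and 4.13 (E2) CPM in A4 and 5.42 and 6.17 CPM in B212. It was higher in B212 by 0.82 ± 0.14 (log2, SE; edgeR adjusted p = 7.49e-05). After removal of a trend on length and GC content of the transcripts its value was 0.12 and its adjusted p 0.468. Its annotated transcript has 91667 bases. Without the E2 library of either clone its value was 1.09, and without the DMSO library of A4 or of B212 it was 0.58 and 0.54.

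PHLDA2, a maternally expressed protein that restrains growth of the placenta, had 24.6 (DMSO) and 25.2 (E2) CPM in A4 and 14.2 and 14.9 CPM in B212. It was lower in B212, with a log2 fold change of -0.78 ± 0.087 (SE; edgeR adjusted p = 3.36e-07). CDKN1C, maternally expressed from the same domain, was higher, and the ratio of CDKN1C to PHLDA2 counts was 0.12 and 0.11 in A4 and 0.43 and 0.29 in B212.

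OSBPL5, a lipid transfer protein maternally expressed in the placenta, had 3.59 (DMSO) and 2.63 (E2) CPM in A4 and 11.6 CPM in both B212 libraries. This 3.74-fold difference (log2 1.90 ± 0.13, SE; edgeR adjusted p = 1.79e-10) exceeded that of each of the 5 tested listed genes. KCNQ1, a potassium channel subunit, and SLC22A18, a membrane transporter, did not pass, with log2 fold changes of 0.26 ± 0.19 and -0.11 ± 0.16 (SE) and edgeR adjusted p of 0.263 and 0.617. With 1 library left out KCNQ1 ran from 0.042 to 0.49.

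The partners of MEST, PLAGL1 and GRB10 were barely transcribed. MESTIT1, an antisense transcript within MEST, had 3 (DMSO) and 11 (E2) counts in A4 and 10 and 21 in B212. HYMAI, a noncoding transcript at PLAGL1, had 1 and 15 counts in A4 and 5 and 18 in B212. DDC had 11 counts in each A4 library and 4 (DMSO) and 7 (E2) counts in B212. CPA4 had 7 to 14 counts in a library and KLF14 at most 5. None of the 4 tested here (MESTIT1, HYMAI, DDC and CPA4) differed between the clones at an edgeR adjusted p under 0.05. Scaled by library size, only the A4 libraries of DDC met the minimum count. DDC thus entered this test only through the clone where it was higher, and its value is a description. Limma-voom gave MESTIT1 an adjusted p of 0.0435.

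Outside these loci, DIRAS3 alone of the other tested imprinted genes reached an absolute log2 fold change of 1 among those called. DIRAS3, a paternally expressed small GTPase that restrains growth, had 18 (DMSO) and 21 (E2) counts in A4 and 139 counts in each B212 library. It was 6.99-fold higher in B212, by 2.81 ± 0.27 (log2, SE; edgeR adjusted p = 3.34e-08).

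Of 18 genes that act on imprints or on DNA methylation, 14 were tested and 4 were called, beside 51.0% of all tested genes. Of the 14, 4 were called higher in B212, beside 25.2% of all tested genes, and 0 were called lower, beside 25.8%. UHRF1, which brings the maintenance methyltransferase to replicating DNA, had 49.6 (DMSO) and 42.1 (E2) CPM in A4 and 60.8 and 70.6 CPM in B212, higher by 0.52 ± 0.090 (log2, SE; edgeR adjusted p = 6.75e-05). Its value was 0.30 without the E2 library of either clone. DNMT1, that methyltransferase, had 236.7 to 273.6 CPM in A4 and 275.3 to 296.1 CPM in B212 (0.17 ± 0.071; edgeR adjusted p = 0.0562). It passed with library size only (0.23, adjusted p = 0.00791 by edgeR) and after removal of the trend on length and GC (0.17, adjusted p = 0.0174). ZNF445, a zinc finger protein that protects imprints, was higher by 0.30 ± 0.076 (edgeR adjusted p = 0.00294; 0.0617 without the treatment term). CTCF, the insulator protein of the H19 control region, had 102.9 to 117.9 CPM (-0.044 ± 0.069; edgeR adjusted p = 0.624). ZFP57 had 2 counts in the DMSO library of B212 and 0 in the other 3.

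The second comparison asked which imprinted genes changed with E2. Without a block, edgeR called 0 of the 5 tested genes, 0 had an unadjusted p under 0.05, and 0% of all 15599 genes were called, with 0.962% at an unadjusted p under 0.05. DESeq2 and limma-voom also called 0 of the 5. The spread within a treatment then includes the difference between the clones. With the clone as a block, again 0 of the 5 were called by edgeR and limma-voom, and 0 of the 4 with an adjusted p by DESeq2, beside 9.56% of all tested genes (1492, of which 956 or 6.13% were higher and 536 or 3.44% lower with E2). DESeq2 with the block gave CDKN1C no adjusted p. At an unadjusted p under 0.05 there was 1 of the 5, CDKN1C, beside 25.3% of all tested genes.

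The mean level of CDKN1C was 4.55 ± 2.11 CPM without and 3.62 ± 1.05 CPM with E2 (SD, n = 2). Blocked by clone, edgeR put its change at -0.30 ± 0.14 (log2, SE; adjusted p = 0.192), with a 95% interval of -0.59 to -0.0033. In A4 the change was -0.088, with a counting interval of -0.36 to 0.18, and in B212 it was -0.47, with a counting interval of -0.68 to -0.27. The counting intervals cover counting error only. The ratio of CDKN1C to KCNQ1OT1 counts was lower with E2 in each clone, 1.2 and 0.70 in A4 and 1.1 and 0.71 in B212, but neither gene passed the test for E2 (KCNQ1OT1 0.41 ± 0.14, edgeR adjusted p = 0.0694 with the block). This pair, like the other ratios, was chosen after the values were seen, and its ratio is a description with no test.

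MEST had a log2 fold change of 0.13 ± 0.072 (SE; edgeR adjusted p = 0.270) with the block, from 0.21 in A4 and 0.050 in B212. The 95% interval was -0.020 to 0.28. GRB10 had -0.11 ± 0.078 (adjusted p = 0.392 by edgeR), from -0.22 in A4 and -0.0050 in B212, with an interval of -0.27 to 0.050. Its DMSO and E2 libraries did not overlap, as those of 25.0% of all tested genes did not.

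PEG10 had 0.034 ± 0.074 (log2, SE; edgeR adjusted p = 0.818) and PLAGL1 0.021 ± 0.076 (edgeR adjusted p = 0.898) with the block. Their 95% intervals were -0.12 to 0.19 and -0.14 to 0.18. The sign was negative in A4 and positive in B212 for both genes, as it was opposite between the clones for 29.8% of all tested genes.

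**Figure D4:**
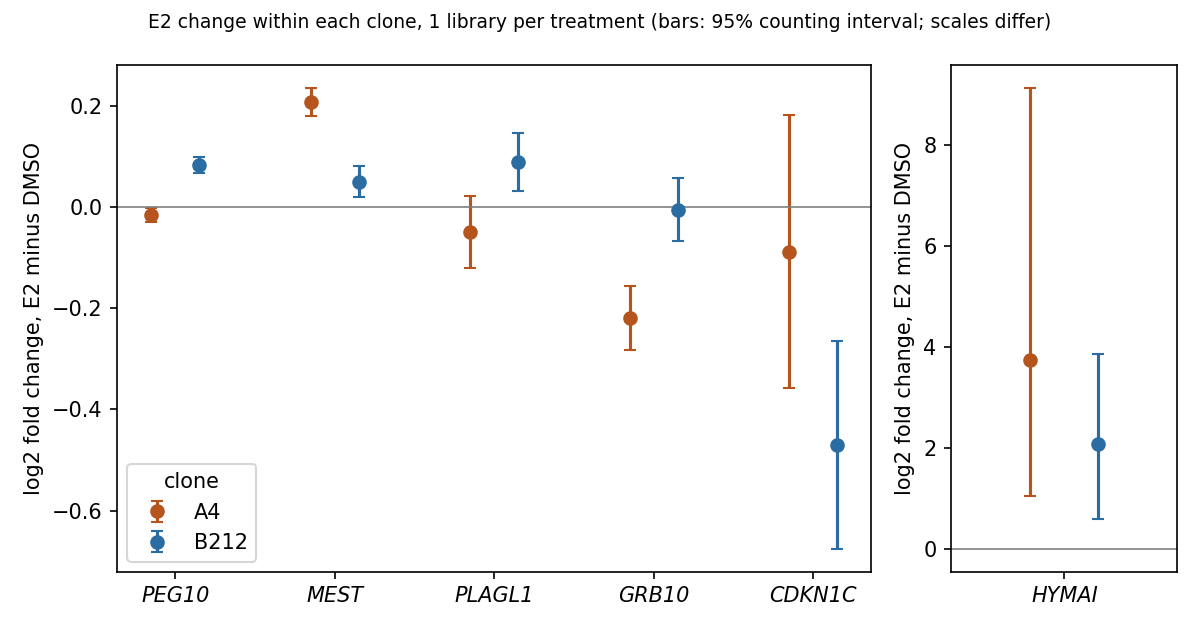
Log2 fold change of E2 against DMSO within A4 (orange) and within B212 (blue), from 1 library per treatment, with bars for the 95% counting interval and separate scales for the 5 tested listed genes (left) and HYMAI (right). The 5 genes lie between -0.47 and 0.21, and HYMAI lies at 3.74 in A4 and 2.07 in B212.

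Of the 29 other imprinted genes tested, edgeR called 0 with no block and 1 with the clone as a block, beside 0% and 9.56% of all tested genes. At an unadjusted p under 0.05 there were 1 and 8 of the 29, beside 0.962% and 25.3% of all tested genes. The gene called was HYMAI, with a fitted log2 fold change of 2.50 ± 0.64 (SE; adjusted p = 0.0200 by edgeR). With 1 and 5 counts in DMSO it passed the minimum count of 10 only through its E2 libraries. A gene at this level had to differ to be tested, and the values of HYMAI are given as a description. HYMAI and MESTIT1 were both among the 8 genes counted with the block. MESTIT1 had 0.0410 (A4) and 0.117 (B212) CPM in DMSO and 0.134 and 0.286 CPM with E2. Scaled by library size, only its E2 libraries met the minimum count, so the same limit holds for MESTIT1. The 8 thus include genes that had to differ to be tested, and this count is a description. The E2 libraries of HYMAI had 15 (A4) and 18 (B212) counts. The log2 change was 3.74 in A4 (counting interval 1.04 to 9.14) and 2.07 in B212 (0.58 to 3.85). Over the other fits with the block the adjusted p of HYMAI ran from 0.0171 (limma-voom) to 0.0505 (length and GC trend removed), and DESeq2 gave none. In GENCODE 29, 8.63% of the exonic bases of HYMAI are shared with PLAGL1 on the same strand, and PLAGL1 did not pass the test for E2.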

How the data were processed

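RNA was sequenced from 4 libraries of Ishikawa ER-Y537S cells, prepared from poly(A) RNA with a strand-marking kit per the labels' protocols. The authors deposited raw counts of reads per gene. HISAT2, SAMtools, featureCounts, DESeq2 and the build hg19 are named in the submitters' processing notes, without versions or roles; the annotation and the strand setting are not given in the sources used here. Of the table's value columns, 4 matched no sample and were not used.

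Counts were tested with edgeR 4.0.16 (quasi-likelihood, TMM scaling, R 4.3.3) over the 15599 genes passing filterByExpr with a minimum count of 10, and p-values were adjusted by Benjamini-Hochberg and called under 0.05. The clone model had treatment as a covariate. The E2 model had no block, and the fit with the clone as a block was run beside it. The clone tag in the column names pairs the libraries: deviations from the treatment means correlated at 0.87 within a tag, and component 1 of a principal component analysis divided the tags. The biological coefficient of variation was 32.2% without and 5.99% with the block. CPM used TMM-scaled library sizes, a floor is 3 counts of that size, and intervals are at 95%. Exact intervals and floors cover counting error only.

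Alternatives were DESeq2 1.42.0, limma-voom 3.58.1, DESeq2 size factors, library size only, other filters and thresholds, no treatment term, a length and GC trend removed (mgcv 1.9.3) and each library left out. Lengths and overlaps came from GENCODE 29 by gene name, and 96.6% of the tested genes had a length. Promoter windows came from RefSeq. The scripts were tested on simulated data.

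The genes named are the 10 listed ones, the tested imprinted genes of their loci, imprinted genes elsewhere called and changed by 1 or more on the log2 scale, those called for E2, and UHRF1, DNMT1, ZNF445, CTCF and ZFP57. Untested genes of those loci are named by their counts and were added after their values were seen. MCTS2P is named only for its shared exons and was also added after its values were seen. The genes and lists were chosen with earlier results of these data known. SNHG14, COPG2IT1 and PEG13 were not analysed here.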

Additional observations from a re-analysis of the deposited data

Results flagged for a closer look

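Log2 changes with E2 within each clone are reported for 6 genes. For 2 of them, PEG10 and PLAGL1, these changes had opposite signs in the clones, as for 29.8% of all tested genes. Neither gene passed the test for E2. The log2 fold change of PEG10 was -0.016 in A4 (counting interval -0.029 to -0.0021) and 0.083 in B212 (0.067 to 0.099). That of PLAGL1 was -0.050 in A4, with a counting interval of -0.12 to 0.021, and 0.089 in B212, with a counting interval of 0.031 to 0.146. These intervals cover counting error only. Each value comes from 1 library per treatment, and the difference between the clones was not tested.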

How the results depend on the processing

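The clone calls of PEG10, CDKN1C and PLAGL1 kept their direction and an adjusted p under 0.05 in every alternative fit with a test, and MEST lost it only without the treatment term. None of the 5 genes passed a required absolute log2 fold change of 1, so 0 were called under it, with 2 of the other imprinted genes and 1723 of all genes. Without the treatment term 4456 genes and 9 other imprinted genes were called, and DESeq2 called 10 other imprinted genes. With library size only, IPW was at 0.054 and CTCF at 0.023, and after removal of the trend on length and GC UBE3A was at -0.016, signs opposite to those given above; the cause was not tested. With 1 library left out the clone fit has no residual degrees of freedom, so only values are given: GRB10 ran from -0.042 to 0.17, SLC22A18 from -0.30 to 0.082 and IPW from -0.14 to 0.12.

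For E2 without a block DESeq2 called 1 gene, and leaving out each library gave 0 to 0 calls. Those fits assume that a lone library varies like the others; PEG10 ran from -0.23 to 0.32, MEST from -0.063 to 0.31, CDKN1C from -0.74 to 0.23, PLAGL1 from -0.33 to 0.32, GRB10 from -0.20 to -0.028 and HYMAI from 1.84 to 3.80. With the replicate block, 1492 genes were called by edgeR, 574 with the trend removed, 717 with DESeq2 size factors, 562 by DESeq2 and 1138 by limma-voom. Among the other imprinted genes the block gave 1 call with edgeR, with DESeq2 size factors and with limma-voom. This was HYMAI, which entered these fits only through its E2 libraries and was not tested where at least 10 counts were required in every library. It changed no call of the 5 listed genes, 0 of which were called for E2 in any fit that gave them an adjusted p. At this depth, differences at genes with at most 3 counts in every library were not detectable.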
